A study of Mus musculus with 2 samples.

Results

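The miR-29 family was measured in exosomes released by mouse macrophages of the M1 and M2 states. Its members were taken by mature miRNA name, and 6 of the 1976 mature miRNAs listed belong to it. They are the guide strands mmu-miR-29a-3p, mmu-miR-29b-3p and mmu-miR-29c-3p and the passenger arms mmu-miR-29a-5p, mmu-miR-29c-5p and mmu-miR-29b-1-5p, written below without the species prefix. A further passenger arm, miR-29b-2-5p, is given beside them because the guide miR-29b-3p comes from a pair of hairpins.

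The M1 exosomes came from bone marrow-derived macrophages given 20 ng/mL IFN-γ for 1 day, and the M2 exosomes from such macrophages given 20 ng/mL IL-4 for 1 day. The marrow of C57BL/6 mice aged 5 to 6 weeks had first been cultured for 7 days with M-CSF at 10 ng/mL, which turns marrow cells into macrophages. Exosomes, small vesicles that carry RNA out of the cell, were then collected from 2 days of serum-free medium by serial centrifugation, a 0.22 μm filter and ultracentrifugation. Each state is represented by 1 small RNA library, and how many mice or cultures stand behind each is not given in the labels, so values carry no replicate error, and each difference is one between 2 libraries and not shown to be one between the 2 states.

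A miRNA hairpin is cut into a duplex of its 5p and 3p arms. One arm, the guide, is usually kept in the Argonaute protein and pairs through its seed, bases 2 to 8, with sites in mRNAs, while the other, the passenger, is usually degraded. The miR-29 guides are known for repressing collagens, elastin and other matrix genes, and fall in many fibrotic tissues. They also repress DNA methyltransferases, and in mouse lymphocytes they have been reported to target the mRNA of IFN-γ, the cytokine that defines the M1 state here.

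The sequences are shown because the guides differ from each other by very few bases while the passenger arms do not share a seed. All 6 members matched a RefSeq mature sequence (GRCm38.p6). The seed is in capitals.
miR-29a-3p: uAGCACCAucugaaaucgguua
miR-29b-3p: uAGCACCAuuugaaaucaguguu
miR-29c-3p: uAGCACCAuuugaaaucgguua
miR-29a-5p: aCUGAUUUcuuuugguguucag
miR-29c-5p: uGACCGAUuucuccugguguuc
miR-29b-1-5p: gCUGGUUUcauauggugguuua
miR-29b-2-5p: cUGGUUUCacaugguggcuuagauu

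The 3 guides shared the seed AGCACCA, and 0 other sequences among the 1679 mature mouse miRNAs of the table carried it. miR-29a-3p and miR-29c-3p were identical at 21 of 22 positions and differed by C10U, with positions counted from the 5′ end and the base of miR-29a-3p first. miR-29b-3p differed from miR-29a-3p by C10U, G18A, U21G and A22U and was 1 base longer. The deposited values do not show how reads shared by guides, or with a base read wrongly, were assigned. miR-29b-3p and miR-29c-3p first differ at position 18 (A18G), so reads ending before it do not separate them. miR-29a-3p and miR-29c-3p are told apart by position 10 alone. The split among the guides is thus uncertain, and the sum of the 3 guides is given below. The seeds of miR-29a-5p, miR-29c-5p and miR-29b-1-5p were each found in 0 other sequences of the table, and that of miR-29b-2-5p was shared with miR-6338.

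miR-29b-3p ends in AGUGUU, a stretch known from human cells as a signal for import into the nucleus. It was one of 2 mature sequences with that end, 0.119% of the table, and the other, miR-92b-5p, was listed at 0 in both libraries. The motifs GGAG and CCCU, described as exosome sorting signals in human T cells, occur in 14.2% and 11.4% of the mature sequences, searched on the mature strand with overlaps between motifs not considered. None of the 7 miR-29 arms holds either motif.

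The hairpins lie in 2 clusters, given here on GRCm38. On the minus strand of chromosome 6, Mir29a occupies 31062660 to 31062747 and Mir29b-1 occupies 31063023 to 31063093, 275 bases apart. Mir29a overlaps no other annotated gene, and Mir29b-1 overlaps an exon of the long non-coding RNA gene Gm27019 by 2 bases. On the plus strand of chromosome 1, Mir29b-2 occupies 195037040 to 195037120 and Mir29c occupies 195037547 to 195037634, 426 bases apart. Both lie in an exon of the non-coding host gene A330023F24Rik, and on the opposite strand in an exon of the complement regulator gene Cd46. The hairpins of miR-29a and miR-29c are shown because their arms behaved differently in the data, with the 5p and then the 3p arm in capitals.
Mir29a: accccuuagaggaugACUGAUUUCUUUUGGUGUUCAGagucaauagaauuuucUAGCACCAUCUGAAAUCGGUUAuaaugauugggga
Mir29c: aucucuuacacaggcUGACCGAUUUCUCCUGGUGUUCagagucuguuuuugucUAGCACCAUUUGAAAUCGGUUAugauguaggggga

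The deposited value of a miRNA is on a log2 scale, log2(level + 1), and the level in linear units is 2 to the power of the value, minus 1. At low levels the values fell on steps, taken as the worth of 1 read, of 0.69 to 0.80 units in M1 exosomes and 1.22 to 1.39 units in M2 exosomes. A level of 3 reads, taken as the floor, was thus up to 2.40 units in the M1 library and 4.16 units in the M2 library. Read totals are unknown, and the levels of all listed miRNAs summed to 686353 units in the M1 library and 734637 units in the M2 library. A miRNA was compared where it reached 10 units in at least 1 library, and a log2 ratio of M1 over M2 of at least 1 in size, 2-fold, counted as different. Of 337 miRNAs compared, 26.1% were higher by 2-fold or more in M1 exosomes and 22.8% lower by 2-fold or more there, and the log2 ratio had a median of 0.04 and an SD over miRNAs of 1.59.

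Of the 6 members 5 reached the minimum. One, miR-29c-3p, was more than 2-fold higher in M1 exosomes, one, miR-29c-5p, was more than 2-fold lower there, and 3 lay within 2-fold, a share of calls near the background in each direction. The median log2 ratio of the 5 was 0.40, against 0.04 over all miRNAs compared. Both calls concern the arms of 1 hairpin and lie at low levels. With 10 units in place of 1 added before the logarithm, both lay inside 2-fold, at log2 ratios of 0.87 and -0.98.

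**Figure D1:**
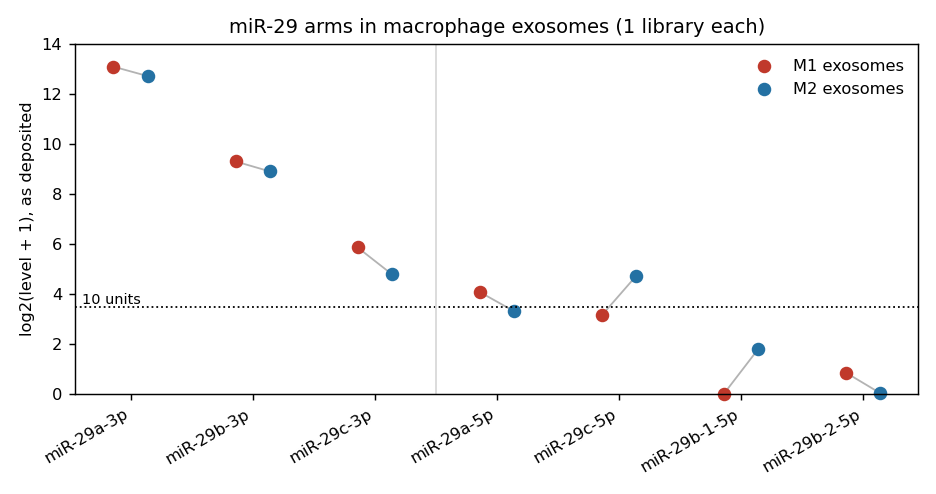
Deposited log2(level + 1) of each miR-29 arm, in M1 exosomes (left point, red) and M2 exosomes (right point, blue), 1 library each, with guides left of the vertical line and passenger arms right of it; the dotted line marks 10 units. The guides step down from miR-29a-3p (M1 13.09, M2 12.72) to miR-29c-3p (M1 5.86, M2 4.79), and miR-29c-5p is the compared arm that is lower in M1 exosomes (M1 3.14, M2 4.71).

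miR-29a-3p, the guide that dominated the family, had a deposited log2 value of 13.09 in the M1 library and 12.72 in the M2 library. These are levels of 8730 units in the M1 library and 6727 units in the M2 library, the 19th highest of the M1 library and the 21st highest of the M2 library. The log2 ratio was 0.38, a 1.30-fold excess in M1 exosomes, and 136 of the 337 miRNAs compared had a higher ratio. The difference is thus small beside the spread of miRNAs between the libraries.

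miR-29b-3p, the guide with the nuclear import sequence, had a log2 value of 9.30 in the M1 library and 8.90 in the M2 library, levels of 629 units (M1) and 478 units (M2). It ranked 79th in both libraries. Its log2 ratio of 0.40, or 1.32-fold, was close to that of miR-29a-3p. Reads of this guide can come from the hairpin on chromosome 6 or from that on chromosome 1, and the mature sequence does not separate them.

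miR-29c-3p, which differs from miR-29a-3p by a single base, had a log2 value of 5.86 in the M1 library and 4.79 in the M2 library. The levels were 57.0 units in the M1 library and 26.6 units in the M2 library, with the M2 level worth about 19 to 22 reads. The log2 ratio of 1.07 is a 2.10-fold excess in M1 exosomes. It lay just past the 2-fold line, and 84 of the 337 miRNAs compared had a higher ratio.

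The order of the guides was the same in both libraries, miR-29a-3p above miR-29b-3p above miR-29c-3p. miR-29a-3p exceeded miR-29b-3p 13.9-fold in the M1 library and 14.1-fold in the M2 library. miR-29b-3p exceeded miR-29c-3p 11.0-fold in the M1 library and 17.9-fold in the M2 library. miR-29a-3p made up 92.7% of the summed guide level in the M1 library and 93.0% in the M2 library, and miR-29c-3p made up 0.606% (M1) and 0.368% (M2). The sum of the 3 guides, which is less open to how similar reads were split among them but still rests on the unstated handling of shared reads, was 9417 units in M1 exosomes, 1.37% of that library, and 7232 units in M2 exosomes, 0.984%. It was 1.30-fold higher in M1 exosomes, a log2 ratio of 0.38. In these bulk libraries, fewer vesicles with a miRNA and fewer copies per vesicle cannot be told apart.

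**Figure D2:**
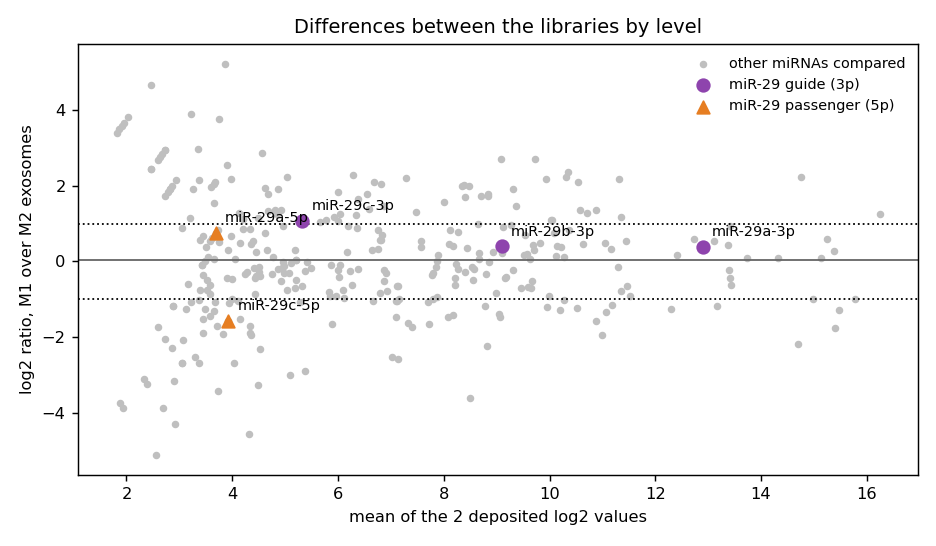
Log2 ratio of M1 over M2 exosomes against the mean of the 2 deposited log2 values for the 337 miRNAs compared (grey), with miR-29 guides as purple circles and passenger arms as orange triangles; dotted lines mark 2-fold and the solid line the median of 0.04. miR-29a-3p and miR-29b-3p lie near the middle of the cloud at 0.38 and 0.40, and the arms of miR-29c lie on opposite sides of it at 1.07 and -1.57.

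The passenger arms held little of the family's level. Summed over the 3 named arms they came to 23.7 units in the M1 library and 36.5 units in the M2 library, which is 0.251% (M1) and 0.503% (M2) of the family's level. miR-29a-5p had a log2 value of 4.08 in the M1 library and 3.31 in the M2 library, worth about 20 to 23 reads (M1) and 6 to 7 reads (M2). Its log2 ratio was 0.77, on the same side of 0 as its guide and within 2-fold.

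miR-29c-5p had a log2 value of 3.14 in the M1 library and 4.71 in the M2 library. The levels were 7.83 units in M1 exosomes, about 10 to 11 reads, and 25.2 units in M2 exosomes, about 18 to 21 reads. The log2 ratio was -1.57, so the arm was 2.96-fold lower in M1 exosomes, and 40 of the 337 miRNAs compared had a lower ratio. It reached 10 units only in the M2 library, and with that minimum required in both libraries it was not compared. Its guide miR-29c-3p was on the other side of 0.

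The 5p arms of miR-29b were at or under the floor in both libraries, so no fold is given. miR-29b-1-5p was listed at 0 in M1 exosomes, which allows up to 2.40 units, and had 2.44 units in M2 exosomes, about 2 reads. miR-29b-2-5p had 0.80 units in M1 exosomes, 1 read, and a log2 value of 0.03 in M2 exosomes, below the worth of 1 read. Their sum was 0.80 units in the M1 library and 2.46 units in the M2 library, against 629 units (M1) and 478 units (M2) of the guide.

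Within a library a single scaling factor cancels, although a normalization that depends on level does not. The hairpins differed in how strongly the guide exceeded the passenger. For miR-29a the guide was 551-fold above the passenger in M1 exosomes and 754-fold above it in M2 exosomes. The log2 ratio of passenger over guide was -9.11 in the M1 library and -9.56 in the M2 library, a difference of 0.45. For miR-29c the guide was 7.29-fold above the passenger in M1 exosomes, and the arms were nearly equal in M2 exosomes, at 1.06-fold. The passenger made up 12.1% of both arms in the M1 library and 48.6% in the M2 library. The log2 ratio of passenger over guide was -2.87 in the M1 library and -0.08 in the M2 library, a difference of -2.78.

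The same ratio was computed for hairpins whose arms pair by name. One arm reached 10 units in at least 1 library in 186 pairs, and in 89 of these all 4 values were worth at least 1 read. Here the arm with the higher summed level was called the guide. The median log2 ratio of passenger over guide was -3.96 in the M1 library and -4.05 in the M2 library, so miR-29a was more one-sided than most of the 89. Pairs with an arm under 1 read in either library are not among them, and some of those were more one-sided. One is miR-122-5p, at 12650 units in M2 exosomes against 0.052 units of its passenger. In M2 exosomes 10 of the 89 pairs had a lower ratio than miR-29a, and 3 had a higher ratio than miR-29c. The difference between libraries had a median of 0.01 (SD over pairs 1.54), and 8 other pairs differed by at least as much in size as miR-29c. A guide and a passenger past 2-fold in opposite directions were found in 5 of the 89 pairs, 5.62%. They were miR-29c, miR-142a, let-7d, miR-582 and miR-9, named after their values were seen. The M2 passenger levels of miR-582 and miR-9, 2.64 units and 3.87 units, were under the floor. Adding 10 units to each arm reduced the miR-29c difference to -1.85 and changed the miR-29a difference to 0.08.

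**Figure D3:**
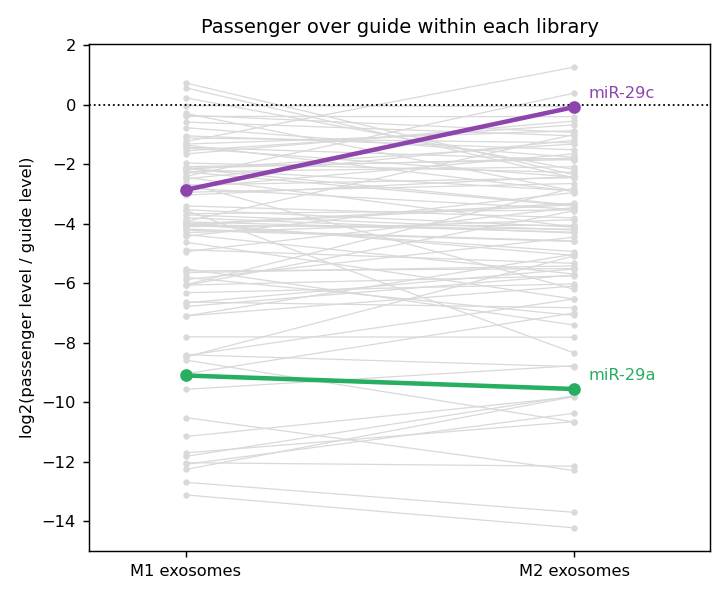
Log2 of the passenger level over the guide level within M1 exosomes (left) and M2 exosomes (right) for 89 pairs of arms (grey lines), with miR-29a in green and miR-29c in purple; the dotted line marks equal arms. miR-29a is at -9.11 in the M1 library and -9.56 in the M2 library, and miR-29c is at -2.87 in the M1 library and -0.08 in the M2 library.

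The clusters could be followed only through single arms. From the chromosome 6 cluster miR-29a-3p and miR-29a-5p were both higher in M1 exosomes, at log2 ratios of 0.38 and 0.77. From the chromosome 1 cluster miR-29c-3p was higher and miR-29c-5p lower in M1 exosomes, at 1.07 and -1.57. The second hairpin of each cluster gives miR-29b-3p and could not be separated by it.

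Of all listed miRNAs, those nearest to each member by the distance of the 2 deposited log2 values were taken. With 2 libraries this measures likeness of level and ratio and nothing more. Nearest to miR-29a-3p were miR-25-3p (M1 13.03, M2 12.43), miR-222-3p (M1 13.38, M2 12.85) and miR-27a-3p. Nearest to miR-29b-3p were miR-93-5p (M1 9.22, M2 8.99), miR-574-5p and miR-425-5p. Nearest to miR-29c-3p were miR-21a-3p (M1 5.92, M2 4.85), the passenger arm of miR-21a, then miR-495-3p and miR-3964. miR-29a-5p had exactly the values of miR-425-3p, followed by miR-872-3p and miR-433-3p. miR-29c-5p had exactly those of miR-203b-5p, followed by miR-669a-3p and miR-5129-3p.

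Other miRNAs described as repressing fibrosis had no shared direction. Of 12 on the list 10 were compared, with 3 higher by 2-fold or more in M1 exosomes, 3 lower by 2-fold or more and 4 within 2-fold, and a median log2 ratio of -0.12. These counts are near the shares over all miRNAs compared, 26.1% higher and 22.8% lower. let-7d-5p had a log2 value of 10.01 in the M1 library and 11.95 in the M2 library, and miR-26a-5p had 9.90 (M1) and 11.14 (M2), both on the other side of 0 from the miR-29 guides. miR-30a-5p was on the same side, with 11.57 (M1) and 10.21 (M2). The third with a lower level in M1 exosomes, miR-133b-3p, had 0.70 units there, under the floor. The list's remaining 2-fold differences were miR-200c-3p and miR-19b-3p, at log2 ratios of 1.37 each.

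Of the 12 miRNAs described as promoting fibrosis 9 were compared, with 1 higher by 2-fold or more in M1 exosomes, 1 lower and 7 within 2-fold, and a median of 0.32, so fewer were past 2-fold than the 26.1% and 22.8% of all miRNAs compared. miR-155-5p, which macrophages induce in inflammation, was the higher one, with 11.25 in the M1 library and 9.90 in the M2 library. The lower one was miR-322-5p, which had a listed level of 0 in the M1 library, against 13.7 units in M2 exosomes. miR-21a-5p was at 14.48 (M1) and 15.47 (M2), just inside the line with a log2 ratio of -0.99. Also within 2-fold, miR-34a-5p was on that side, at -0.29. On the side of the miR-29 guides were miR-221-3p (0.28), miR-27a-3p (0.43), miR-222-3p (0.53), miR-192-5p (0.35) and miR-199a-5p (0.315). Of these, miR-27a-3p and miR-222-3p are among the 3 miRNAs nearest to miR-29a-3p above.

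Other miRNAs are also described as targeting DNA methyltransferases, not always the same ones as miR-29, and a fixed list of them includes miR-148 and miR-152. On that list 0 of 6 were higher by 2-fold or more in M1 exosomes and 3 were lower, against 22.8% lower among all miRNAs compared, with a median of -0.80. miR-148a-3p had a log2 value of 14.83 in the M1 library and 16.10 in the M2 library, miR-148b-3p had 9.56 (M1) and 10.84 (M2), and miR-152-3p had 6.52 (M1) and 8.26 (M2). The miR-29 guides lay on the other side of 0 from these 3. The other 3 on the list lay within 2-fold. Of these, miR-101a-3p (log2 ratio 0.375) and miR-185-5p (0.82) were on the side of the guides, and miR-143-3p (-0.33) was not.

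Set beside families of similar build, the miR-30 family had 3 of 9 compared members higher by 2-fold or more in M1 exosomes and 0 lower, with a median of 0.29. For this family and miR-26, the shares over all miRNAs compared were 26.1% higher by 2-fold or more in M1 exosomes and 22.8% lower. One of the 3 higher, miR-30c-2-3p, had an M2 level of 1.38 units, under the floor. The miR-26 family had both compared 5p guides lower in M1 exosomes, at log2 ratios of -1.24 for miR-26a-5p and -1.17 for miR-26b-5p. Its passenger miR-26b-3p was on the other side, with 10.4 units in M1 exosomes and less than the worth of 1 read in M2 exosomes. This passenger reached the minimum only through the M1 library. Over the 89 pairs of arms, guide and passenger lay on the same side of 0 in 54, or 60.7%.

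The guides are summed above because they read the same site in an mRNA, TGGTGCT in the DNA alphabet. It was searched on the transcript strand of GENCODE M21 3′ UTRs, 1 per gene from the transcript with the longest coding sequence. Of 21005 genes 11.8% held a match, at a median UTR length of 801 bases. Of 44 collagen genes 24 held one, 54.5%, at a median of 920.5 bases. Among genes with UTRs of 500 to 2000 bases the share was 10.4%, and 15 of 27 collagen genes of that length held a match. These counts describe sequence, and no mRNA was measured in this series.

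Of 26 known or proposed targets on the list 24 held a match, 11 of them at least 2 and 8 at least 3, which is no independent evidence since many were described as targets from such sites. Tet3 held 8, Tet1 held 7, Tet2 and the methyltransferase gene Dnmt3a held 5 each, and Col5a1 held 4. Eln, the elastin gene, held 3. Col1a1, Col3a1 and Ifng each held 1. Col1a2 and Sparc held 0 in the UTR used. Sites of up to 30 bases are shown for 4 genes to set beside the seeds above, as DNA of the transcript strand on GRCm38 with the seed match in capitals.
Col1a1, chr11:94952516-94952545, plus strand: gggtggggtgggaaggaatttcTGGTGCTa
Col3a1, chr1:45348960-45348989, plus strand: ttccaacttcaaaatgtctcaaTGGTGCTa
Eln, chr5:134703736-134703765, minus strand: tgactcgcgacctcatcaacgtTGGTGCTa
Ifng, chr10:118445758-118445787, plus strand: gtgtctcaagagacttgacaccTGGTGCTt
In Col1a1, Col3a1 and this site of Eln the match is followed by an A, a known feature of stronger sites, and in Ifng it is not.

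Markers of macrophages and of other cells were also present in the libraries. All 6 of the myeloid list were compared, and their summed level was 147352 units in the M1 library and 98553 units in the M2 library. miR-146a-5p, whose gene is a target of NF-κB, made up the largest share, with 120526 units (M1) and 50604 units (M2), and the other 5 summed to 26825 units (M1) and 47949 units (M2). Of the 6, 3 were higher by 2-fold or more in M1 exosomes and 1, miR-142a-3p, was lower. For this and the lists below, the shares over all miRNAs compared were 26.1% higher by 2-fold or more in M1 exosomes and 22.8% lower. Of 5 erythroid miRNAs 4 were compared and all 4 were higher by 2-fold or more in M1 exosomes, with sums of 7948 units (M1) and 1498 units (M2) over the list and a median log2 ratio of 2.54. The M2 level of miR-144-5p, 2.66 units, was under the floor. Among the 4, miR-486a-5p (2958 units M1, 576 units M2) and miR-486b-5p (2756 units M1, 588 units M2) had close levels, and whether they share reads was not tested. Of 8 stromal and fibroblast miRNAs, cells in which miR-29 is also active, 7 were compared and 4 were higher by 2-fold or more in M1 exosomes, with sums of 5007 units (M1) and 1781 units (M2) and a median of 1.79. The M2 levels of miR-145a-5p and miR-145a-3p, 2 of these 4, were under the floor. Of the 3 liver miRNAs miR-122-5p was 4.72-fold higher in M1 exosomes, and miR-192-5p and miR-194-5p lay within 2-fold, with a median of 0.35 over the list. Of the 3 neuronal miRNAs miR-9-5p was 12.2-fold lower in M1 exosomes, with 103 units (M1) and 1264 units (M2), miR-129-5p was 2.18-fold higher there, and miR-124-3p was listed at 0 in both libraries. The median log2 ratios of the myeloid (0.28), erythroid, stromal, liver and lymphocyte (0.15) lists were on the same side of 0 as the miR-29 guides. Those of the neuronal (-1.24), muscle (-0.27, 1 miRNA compared) and epithelial (-0.455) lists were on the other side. Over all 337 miRNAs compared, the background here and for the lists above, 50.7% had a log2 ratio above 0. In 2 lists the calls went against the median. Of 5 epithelial miRNAs compared 2, miR-200a-3p (1.83) and miR-200c-3p (1.37), were higher by 2-fold or more in M1 exosomes and 0 lower. Of 3 lymphocyte miRNAs compared 1, miR-150-5p (-1.70), was lower by 2-fold or more there and 0 higher. The part of other cells in the miR-29 difference was not tested.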

How the data were processed

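Small RNA libraries (500 ng of RNA, NEBNext kit, per the labels' protocols) of 1 M1 and 1 M2 exosome sample were used. Bowtie2, bedtools and mm10 are named in the submitters' processing notes. For read assignment, reads matching several miRNAs and normalization, the method was not given in the sources used here, and strand handling likewise. The authors deposited 1 log2 value per mature miRNA. The scale was read from the values of miRNAs nearly absent from the other library. Of 175 M1 levels of miRNAs below 1 read in the M2 library 99.4% were whole multiples of the worth of 1 read within 0.1 read. For 129 M2 levels of miRNAs listed at 0 in the M1 library it was 95.3%. The compared miR-29 arms were not among these miRNAs. The worth of 1 read moved with the level in the other library, so the libraries were taken as normalized together. Read numbers are approximate and given up to 30 units only.

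Ratios are differences of deposited log2 values, M1 minus M2, and understate differences of low miRNAs. With 1 library per group no test was made. The planned minimum of 10 was read as units of the deposited scale. Named miRNAs are the members, the 3 nearest to each compared member and a part of the fixed-list members that have a mean of at least 100 units or carry a call. Other list members that met these limits were not named. Outside that rule, miR-124-3p, miR-34a-5p, miR-199a-5p, miR-6338, miR-92b-5p and the hairpins with arms in opposite directions were named after their values or sequences were seen. So were the hairpins miR-296 and miR-144. Members and lists were chosen with earlier results of these data known. Sequences are from RefSeq (GRCm38.p6), and hairpin overlaps and UTRs from GENCODE M21, both on GRCm38, the assembly called mm10. Python 3.11.15, numpy 2.4.6 and pandas 2.3.3 were used.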

Additional observations from a re-analysis of the deposited data

How the results depend on the processing

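The numbers of members past 2-fold, 1 in each direction, depended on the settings. With 10 units added before the logarithm they were 0 higher and 0 lower in M1 exosomes, and likewise with a minimum of 100 units in 1 library. With no minimum they were 1 higher and 2 lower, the second being miR-29b-1-5p at about 2 reads in M2 exosomes. With the minimum required in both libraries they were 1 higher and 0 lower. Of 57 alternatives computed 49 were unchanged and 0 reversed. Unchanged means the same direction and side of the 2-fold line for a log2 ratio, and the same number for a count of members. Of the rest 6 were counts that moved and 2 were log2 ratios that fell inside 2-fold. The log2 ratio of the summed guides lay between 0.31 and 0.48. Dividing each library by its sum shifted the scale of the log2 ratios by 0.10, and dividing by the sum without the 10 most abundant miRNAs shifted it by -0.07; low arms moved slightly less because 1 unit is added. Under the second scaling miR-29c-3p stood at 1.00. No paired analysis was possible because a single library stands for each group, and none could be left out. Depth limits miR-29c and the passenger arms, which rest on few reads.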
